A study of Mus musculus with 289 samples.

Results

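The mitochondrial genome is a small circular DNA that cells hold in many copies, and its genes are described here cell by cell in astrocytes of the adult mouse cortex. The members are the rows of 5 batch tables whose gene symbol starts with mt-. They number 37, beside 55487 gene rows in all in the largest table, that of batch 1: 13 messenger RNAs (mRNAs), 2 ribosomal RNAs (rRNAs) and 22 transfer RNAs (tRNAs). Batches 1 and 5 held a row for all 37, batch 4 for 35, and batches 2 and 3 for 33.

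In this genome the mRNAs encode core subunits of the respiratory chain and of ATP synthase, and the rRNAs and tRNAs serve the translation of those mRNAs inside the organelle. Both strands are transcribed into long precursors, which are cut mostly at the tRNAs that stand between the other genes, and most of the released mRNAs and rRNAs carry short poly(A) tails. All other subunits of the chain, and the enzymes that copy and process mitochondrial DNA and RNA, come from nuclear genes.

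Each library was 1 cell drawn with an electrophysiology pipette from the brain of a transgenic mouse expressing Cas9 and amplified from polyadenylated RNA by Smart-seq2, which reads along whole transcripts without molecular identifiers. The mice were adult and had a lentivirus (Mok-LV, made to act in astrocytes) injected into the cortex. It carried guide RNAs (gRNAs) against the transcription factor genes Sox9, Trps1 or both (the last called dual gRNA here), and other cells were labelled with a control gRNA. The labels used here do not say whether the mice of cells labelled no gRNA had received a virus. In-slice controls are libraries labelled as holding no cell or as a slice control.

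Values were present for 254 of 289 labelled samples, 242 astrocytes and 12 in-slice controls. The other 35, all of batch 4, were not analysed here. Batch 1 held 31 cells without gRNA, 10 with control gRNA and 4 with dual gRNA. Its day labels run from 8 to 16 over the control gRNA cells and from 17 to 20 over the dual gRNA cells, at 1 or 2 cells a day, and were not used as days; between these groups gRNA and day label cannot be told apart. Batch 2 held control gRNA cells of day 7 (8 cells) and of day 21 (7 cells). It also held dual gRNA cells of day 21 (8 cells) and 1 in-slice control of day 7. Batch 3 held 6 cells without gRNA and, at day 7, 21 Sox9 gRNA cells, 14 dual gRNA cells and 4 in-slice controls. Batch 4 held, at day 21, 15 cells with control gRNA, 16 with Sox9 gRNA, 13 with dual gRNA and 2 in-slice controls. It also held 15 Trps1 gRNA cells of day 7. Batch 5 held 23 cells without gRNA and, at day 21, 21 cells with Sox9 gRNA, 30 with Trps1 gRNA and 5 in-slice controls.

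No label ties a cell to an animal. All cells of 1 batch, gRNA and day (in batch 1, of 1 gRNA over all day labels) were summed into 1 pool, pools were compared only within a batch, and no comparison has a replicate check. Ratios are given with no p-value, and a log2 ratio of 1 or more either way (a 2-fold difference) is the size at which one is counted. The astrocytes held 289848354 reads in genes, of which 11808349 fell in mitochondrial genes. The exact 95% binomial (Clopper-Pearson) interval of a pooled share covers counting error only and was narrow: the widest of the 20 pools ran from 7.07% to 7.13%.

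Some libraries stand apart. Of the 6 cells without gRNA in batch 3, the lowest 3 held 15959, 19048 and 94129 reads in genes, and that pool's median was 236508 reads against 1444750 over the astrocytes of the batch. Sox9 gRNA cells of batch 4 came in 2 title series, here called 21S (6 cells) and 21S2 (10 cells) as in their titles. Levels are in CPM, the reads of a gene scaled to a common total of reads in genes, or in nuclear CPM, scaled to a common total of reads in nuclear genes. Erythroid markers (globin genes and Alas2) lay between 0 and 795 nuclear CPM in 21S cells and between 651 and 45983 in 21S2 cells. All 10 astrocyte markers, among them Aqp4 and Slc1a2, were read in each of the 16 astrocyte pools. They summed to 23321, 19072, 12344 and 24820 nuclear CPM in astrocytes of batches 2, 3, 4 and 5. Single cells could hold few of these reads. The lowest cell had 69.8 nuclear CPM with Trps1 gRNA and 625 with Sox9 gRNA in batch 4. It had 476 with Sox9 gRNA in batch 3 and 617 with Trps1 gRNA in batch 5. Such cells were kept as labelled. In the in-slice controls of batches 2, 3, 4 and 5 the astrocyte markers summed to 9894, 11937, 1457 and 5464. Microglial markers summed to 7126, 6555, 7424 and 4951 in the astrocytes and to 15447, 24641, 1612 and 3771 in the controls. Microglial markers were thus higher in the controls of batches 2 and 3 and lower in those of batches 4 and 5. The mRNA of the targeted gene does not separate the groups: Sox9 stood at 1303 CPM with Sox9 gRNA and 382 without gRNA in batch 3, at 189 with Sox9 gRNA and 177 with control gRNA in batch 4, and at 233 with Sox9 gRNA and 309 without gRNA in batch 5. Trps1 stood at 57.6 CPM with Trps1 gRNA and 91.9 without gRNA in batch 5. In batch 4 Trps1 stood at 103 with Trps1 gRNA of day 7 (median cell 0, highest 2379) and 3.35 with control gRNA of day 21. With dual gRNA in batches 1 to 4, Sox9 stood at 1860, 905, 1492 and 133 CPM and Trps1 at 112, 19.4, 294 and 16.7. The reference pools had 209, 491, 382 and 177 for Sox9 and 4.61, 107, 109 and 3.35 for Trps1. The reference was no gRNA in batch 3 and control gRNA (day 21 in batches 2 and 4) otherwise. A cut in a gene can leave its mRNA in place, so counts per gene do not check the cutting, and groups are named here as labelled.

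Before the values, the sequences show which mRNA and rRNA members can be counted. Reads that match 2 genes equally well cannot be placed, so each mitochondrial gene was aligned to all nuclear transcripts of the GENCODE M21 annotation (GRCm38) for matches of 95% identity or more over 100 bases or more. The tRNA genes, of 59 to 75 bases, are too short for such a match, so copies of them were not examined. A run of 7 pseudogenes lies on the minus strand of chromosome 1 between 24611535 and 24616197 and keeps the mitochondrial gene order. It holds copies of almost the whole of mt-Co2 (Gm28661), mt-Atp6 (Gm10925), mt-Co3 (Gm28437), mt-Nd3 (Gm28438) and mt-Nd4l (Gm10222). Identity was 100% for 4 of these 5 and 99.7% for Gm28438, which has 1 mismatch in 345 bases. The run also holds the first 876 of the 1378 bases of mt-Nd4 (Gm28439) and 483 of the 1545 bases of mt-Co1 (Gm29216). The genes mt-Co2, mt-Atp8, mt-Atp6, mt-Co3, mt-Nd3 and mt-Nd4l form 1 block of the mitochondrial genome (chromosome M, 7013 to 10173). No pseudogene is annotated for mt-Atp8. The 230 bases between mt-Co2 and mt-Atp6, where mt-Atp8 starts, face a stretch of 233 bases between Gm28661 and Gm10925.

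The first 60 bases of mt-Co2 (chrM:7013-7072, plus strand) and of its copy (chr1:24615506-24615565, minus strand) are shown because no base tells them apart, so a read from here has 2 equal origins:
mt-Co2: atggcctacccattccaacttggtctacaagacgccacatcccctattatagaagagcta
Gm28661: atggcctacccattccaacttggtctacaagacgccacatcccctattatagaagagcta

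The first 60 bases of mt-Nd3 (chrM:9459-9518, plus strand) and of Gm28438 (chr1:24613060-24613119, minus strand) hold the only mismatch of that pair, T3C, counted from the first base of the gene and in capitals:
mt-Nd3: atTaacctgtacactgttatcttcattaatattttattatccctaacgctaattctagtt
Gm28438: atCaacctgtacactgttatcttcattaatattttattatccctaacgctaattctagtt

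A more distant copy of mt-Co1 on chromosome 2, Gm13340, is 97.6% identical with 37 mismatches in 1545 bases. Bases 44 to 103 of mt-Co1 (chrM:5371-5430, plus strand) and the matching bases of Gm13340 (chr2:22589545-22589604, minus strand) show 3 of them in capitals, C54A, A60G and G87A:
mt-Co1: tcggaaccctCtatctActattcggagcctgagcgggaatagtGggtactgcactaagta
Gm13340: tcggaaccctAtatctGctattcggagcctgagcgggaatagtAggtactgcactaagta

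The end of mt-Atp8 (chrM:7910-7969, plus strand) shares 43 bases, in capitals, with the start of mt-Atp6, so reads there belong to both genes:
mt-Atp8: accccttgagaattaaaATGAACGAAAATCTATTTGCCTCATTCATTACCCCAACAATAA

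The start of mt-Cytb (chrM:14145-14204, plus strand) stands for the mRNA and rRNA genes with no match of that kind, which were mt-Rnr1, mt-Rnr2, mt-Nd1, mt-Nd6 and mt-Cytb beside mt-Atp8:
mt-Cytb: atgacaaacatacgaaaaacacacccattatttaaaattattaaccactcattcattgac

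The 6 genes of the block held almost none of the mitochondrial reads. They took 0.000984% in batch 1 (10 of 1015825 reads, all in mt-Nd3), 0.224% in batch 2, 0.379% in batch 3, 0.327% in batch 4 and 1.04% in batch 5. Per kilobase of gene, the scale on which levels are compared between genes, the highest block gene of a batch stayed below the lowest of the 7 other mRNAs in all 5 batches. The gap between them was smallest in batch 5, where mt-Atp6 stood at 172 CPM per kilobase and mt-Nd6 at 298. It was 95.5 for mt-Co3 against 504 for mt-Nd6 in batch 4.

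**Figure D1:**
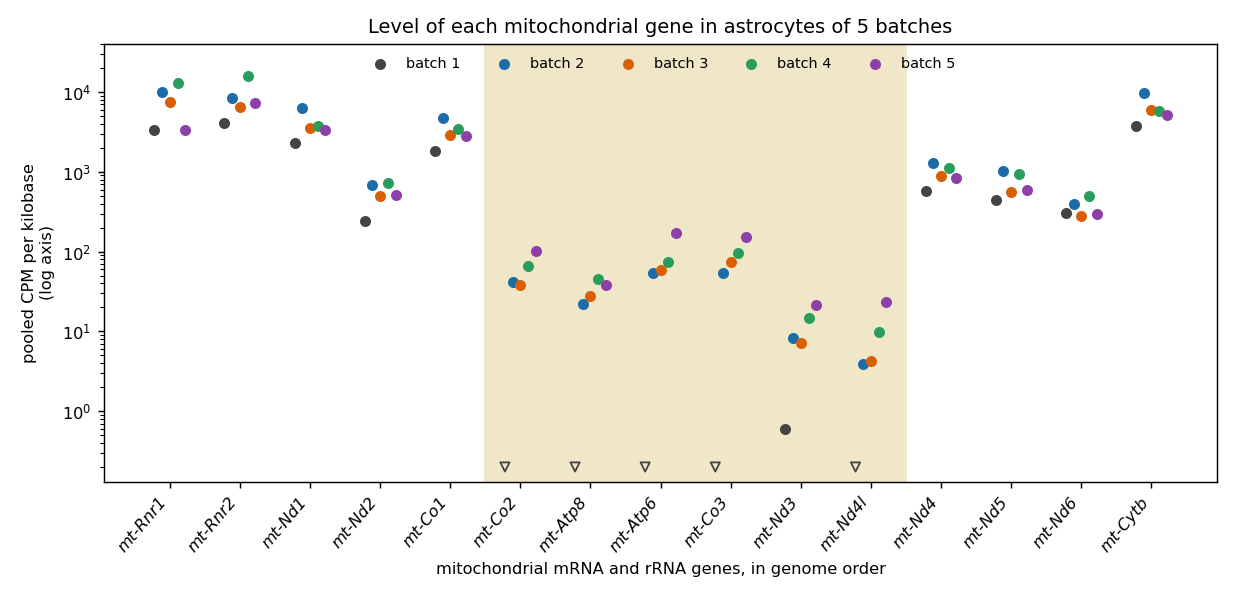
Pooled CPM per kilobase (log axis) of the 13 mRNA and 2 rRNA genes in genome order, 1 point per batch, in all astrocytes of the batch. The shaded genes are the block mt-Co2 to mt-Nd4l, and open triangles mark genes with no read in batch 1; shaded points lie below all unshaded points of the same batch.

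In batches 2 to 5, 2 of the 5 pairs of a block gene and its nearly whole copy were split almost evenly. Of the reads of mt-Co2 and Gm28661 together, mt-Co2 took 50.1%, 50.3%, 52.6% and 48.1% in batches 2, 3, 4 and 5. For mt-Co3 and Gm28437 these shares were 49.9%, 51.4%, 51.2% and 52.8%. In both pairs the split stayed within 3 percentage points of even in each of the 4 batches. Of mt-Atp6 with Gm10925 the mitochondrial gene took 43.7%, 43.4%, 45.7% and 39.6%. The remaining pairs were uneven: mt-Nd3 took 58.2% to 77.8% of its pair, on 137 to 451 reads of its own, and mt-Nd4l took 9.38% to 20.8%.

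Genes outside the block whose copy is partial or more distant kept nearly all reads. The gene took 95.9% to 99.3% of mt-Nd4 with Gm28439, 98.5% to 99.6% of mt-Co1 with Gm13340 and 99.2% to 99.7% of mt-Nd5 with Gm4076 in batches 2 to 5. The block gene mt-Co2 also has a more distant copy on chromosome 2, Gm13341, at 95.9% identity. Of that pair mt-Co2 took 84.4%, 83.9%, 85.2% and 96.9% in batches 2 to 5. In batch 1 both the block genes and their copies were almost empty, with 26 reads in Gm28437 as the copy of mt-Co3 and 0 in mt-Co3 itself, which allows up to 3 counts. That table alone has a row for reads with more than 1 place in the genome, so multiply placed reads were kept apart there, whereas the sources used here do not give their treatment in batches 2 to 5. The part of read placement in the low levels of the block genes was not tested. Adding all copies to the mitochondrial reads moved the share of a pool by at most 0.154 percentage points.

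**Figure D2:**
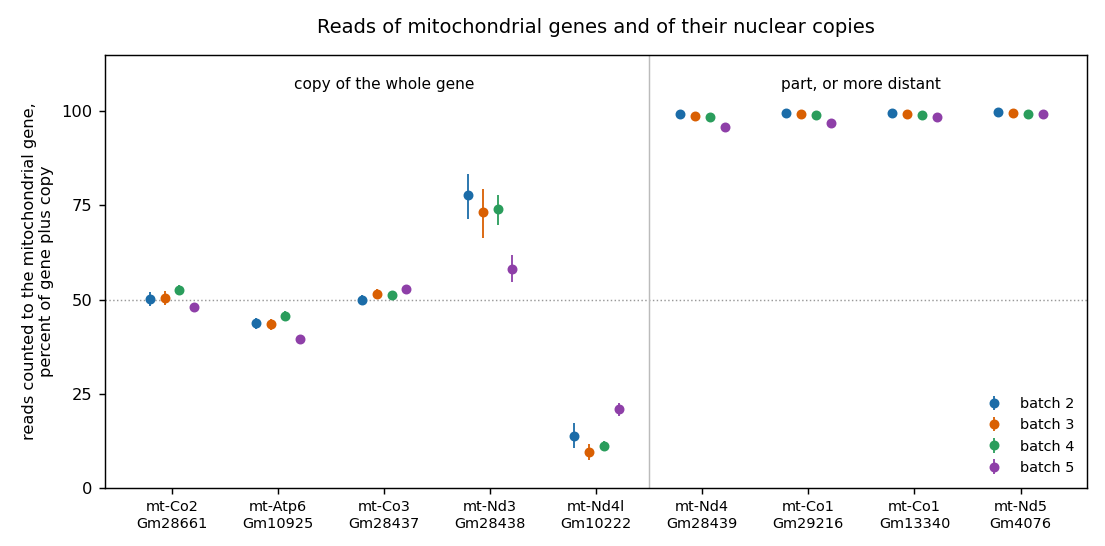
Reads counted to the mitochondrial gene as a percent of gene and nuclear copy together, for 9 gene and copy pairs in batches 2 to 5, with exact 95% binomial intervals for counting error. The pairs mt-Co2 and mt-Co3 lie near the dotted line at 50%, and the 4 pairs on the right lie above 95%. The pairs of mt-Co2 with Gm13341 and of mt-Nd2 with Gm13339 are not plotted.

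The rRNAs held the most reads over all astrocytes, but did not lead in every batch per kilobase. Over all astrocytes mt-Rnr2, the large-subunit rRNA (chromosome M, 1094 to 2675), reached 14121 CPM and mt-Rnr1, the small-subunit rRNA (70 to 1024), 7449 CPM, and both were read in all 242 cells. Per kilobase, mt-Rnr1 ranged from 3349.5 CPM in batch 1 to 13075 in batch 4, and mt-Rnr2 from 4072 to 15687 in the same batches. Their places by this scale were 3, 1, 1, 2 and 4 for mt-Rnr1 and 1, 3, 2, 1 and 1 for mt-Rnr2 in batches 1 to 5.

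The mRNA with the highest level per kilobase was mt-Cytb (14145 to 15288), the only mitochondrially encoded subunit of complex III. It ranged from 3736 CPM per kilobase in batch 1 to 9592 in batch 2 and was read in 241 cells. Of complex I, the NADH dehydrogenase, mt-Nd1 (2751 to 3707) was highest at 2291 to 6383 CPM per kilobase. The catalytic subunit of complex IV, mt-Co1 (5328 to 6872), followed at 1845 to 4685 and held the fifth place in each of the 5 batches. The places below it were also the same in each batch, with mt-Nd4 sixth (572 to 1295) and mt-Nd5 seventh (439 to 1027).

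The lowest genes outside the block were mt-Nd2 (245 to 724 CPM per kilobase) and mt-Nd6 (283 to 504), and these 2 exchanged the eighth and ninth place between batch 1 and the other batches. The only mRNA gene on the minus strand is mt-Nd6 (13552 to 14070), and its end overlaps mt-Nd5. Smart-seq2 does not mark strand, so reads of mt-Nd6 and of RNA antisense to it cannot be told apart. Complex V is represented by mt-Atp6 and mt-Atp8 alone, both in the block.

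All 22 tRNA genes together held 0.256% of the mitochondrial reads of astrocytes. The leading one was mt-Tq, the glutamine tRNA on the minus strand, with 46.5 CPM and reads in 214 of 242 cells, followed by mt-Tp (proline) with 13.8 CPM and mt-Tf (phenylalanine) with 8.98 CPM. Their parts of the mitochondrial reads varied between pools, for mt-Tq from 0.0177% in the dual gRNA pool of batch 2 to 0.477% in the Trps1 gRNA pool of batch 5. Mature tRNAs are short and carry no poly(A) tail, and whether these reads came from tRNAs or from longer precursors cannot be told from counts per gene.

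The mitochondrial share of a cell's reads in genes spanned a wide range within every pool of more than 1 library. Over all 242 astrocytes the pooled share was 4.07%, the median cell 2.77%, the lowest 0.0987% and the highest 28.4%. A share of 5% or more was reached by 65 cells, of 10% or more by 17 and of 20% or more by 4.

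In batch 1 the pooled share was 1.5% without gRNA (31 cells, lowest 0.0987%, median 0.890%, highest 6.56%) and 3.13% with control gRNA (10 cells, lowest 0.424%, median 2.25%, highest 11.3%). The log2 ratio was 1.06, and 9 of 10 control gRNA cells were above the median cell without gRNA, although the ranges overlapped. Control gRNA replicate 9 alone, at 11.3%, held 33.6% of that pool's mitochondrial reads, and the ratio was 0.82 without the cell with the most such reads in each pool. The 4 dual gRNA cells had shares of 6.68%, 5.41%, 2.92% and 0.677%, giving 3.53% pooled and a log2 ratio of 0.17 to control gRNA. This small difference turned to -0.39 without dual gRNA replicate 1. Microglial markers, of which all 8 were read in each pool, moved with the first comparison: they summed to 257 nuclear CPM without gRNA (cells between 0 and 3427) and 7792 with control gRNA (cells between 9.71 and 24471), and to 4421 with dual gRNA. Their part in the result was not tested.

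By gene, 6 of 11 members tested were higher by 2-fold or more with control gRNA than without gRNA in batch 1, against 37.2% of all genes tested, and none was lower, against 30.1%. The largest log2 ratio of CPM among the 9 genes outside the block was 1.53 for mt-Nd2, at 427 against 145 CPM, and the smallest 0.39 for mt-Nd6. Between dual and control gRNA 7 of 16 members tested were higher by 2-fold or more, against 22.3% of genes, and none was lower, against 63.8%. These were mt-Nd6 (444 against 151 CPM), mt-Cytb (11532 against 5716 CPM) and the tRNA genes mt-Tq, mt-Tf, mt-Te, mt-Ti and mt-Tt. The rRNAs were slightly lower there, with log2 ratios of -0.28 for mt-Rnr1 and -0.22 for mt-Rnr2.

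Batch 2 separates the days under the same control gRNA. The pooled share was 3.17% at day 7 (8 cells, lowest 0.177%, median 3.54%, highest 4.65%) and 6.0% at day 21 (7 cells, lowest 1.20%, median 7.13%, highest 9.44%), a log2 ratio of 0.92. Of the day 21 cells, 5 of 7 were above the highest day 7 cell. All 9 genes outside the block had a higher CPM at day 21, from a log2 ratio of 0.65 for mt-Co1 to 1.74 for mt-Nd5, which stood at 2697 against 804 CPM. In all, 4 of 15 members tested were higher by 2-fold or more, against 28.8% of genes, a share near the background, and none was lower, against 43.4%. Astrocyte markers summed to 20827 nuclear CPM at day 7 and 16656 at day 21, and microglial markers to 4448 and 6582. A set of 6 myelin genes (Mbp, Mog, Mag, Mobp, Mal and Cldn11) summed to 892 and 2616, with 4 and 3 of them read. The part of these markers in the difference was not tested.

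Batch 2 also contains added spike-in RNA, which gives a scale independent of the other genes. Per spike-in read, the control gRNA pools held 0.156 mitochondrial reads at day 7 and 0.177 at day 21, a log2 ratio of 0.18 in place of 0.92. Nuclear gene reads per spike-in read were 4.77 at day 7 and 2.77 at day 21. By medians of cells, mitochondrial reads per spike-in read were 0.151 at day 7 and 0.265 at day 21 and nuclear reads 4.81 and 4.58, so pools and medians place the difference of the days differently. Single cells spread widely, from 0.00802 to 1.21 mitochondrial reads per spike-in read at day 7 and from 0.0557 to 0.614 at day 21. The labels do not say how much spike-in each cell received.

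The dual gRNA pool of batch 2 had a share of 6.43% (8 cells, lowest 2.72%, median 5.77%, highest 10.4%), a log2 ratio of 0.10 to control gRNA of day 21. Medians of cells gave the other direction, at -0.30. None of 16 members tested was past 2-fold in either direction, where 33.9% of all genes were higher and 41.7% lower.

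In batch 3, all at day 7 where a day was given, the share was highest in the Sox9 gRNA pool. It was 4.52% there (21 cells, lowest 1.37%, median 3.87%, highest 9.81%), 2.40% with dual gRNA (14 cells, lowest 1.12%, median 1.97%, highest 5.72%) and 1.80% without gRNA (6 cells, lowest 0.781%, median 1.55%, highest 4.22%). The log2 ratio of Sox9 to no gRNA was 1.33, with 9 of 21 Sox9 gRNA cells above the highest cell without gRNA. That of dual to Sox9 gRNA was -0.92, with 1 of 14 dual gRNA cells above the median Sox9 gRNA cell. Each Sox9 gRNA title series alone gave almost the same ratio to no gRNA, at 1.32 and 1.36, but both use the same 6 cells without gRNA.

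Most genes differed the same way as the members between the Sox9 gRNA and no gRNA pools of batch 3. All 9 genes outside the block were higher, 8 of them by 2-fold or more, with mt-Nd2 at 789 against 173 CPM and mt-Cytb at 9164 against 2222 CPM. Counting every member, 12 of 16 tested were higher by 2-fold or more, but so were 63.5% of all genes tested, and none was lower, against 13%. The median gene had a log2 ratio of 1.43. The cells without gRNA had a low depth, as given above. Microglial markers summed to 215 nuclear CPM there (5 of 8 read, with C1qb, C1qc and Cx3cr1 at 0) and to 8056 with Sox9 gRNA (all 8 read). The 6 myelin genes summed to 338 and 3220 nuclear CPM, with 3 and 6 of them read. The part of depth and of these markers in the result was not tested. With only cells of 100000 reads or more, the log2 ratio of the share was 1.32. The cells left out held few of the 3297698 reads of the pool without gRNA, so this value cannot show the part of depth.

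Against dual gRNA the background was lower. Of 16 members tested, 8 were lower by 2-fold or more in the dual than in the Sox9 gRNA pool, where 28.4% of genes were lower, and none was higher, where 21.0% were. The median gene had a log2 ratio of -0.17. The 8 were 7 mRNAs of complexes I, III and IV (mt-Nd1, mt-Nd2, mt-Nd4, mt-Nd5, mt-Nd6, mt-Cytb and mt-Co1) and mt-Tq. The log2 ratio was -2.01 for mt-Nd2, at 192 against 789 CPM, and -0.55 for mt-Rnr2, at 8261 against 12065 CPM. Microglial markers summed to 8056 nuclear CPM in the Sox9 gRNA pool and 5476 in the dual gRNA pool, with all 8 markers read in both. The 6 myelin genes summed to 3220 nuclear CPM with Sox9 gRNA (cells between 0 and 19986) and 122 with dual gRNA (cells between 0 and 539), where Mag had no read. The part of these markers in the difference was not tested.

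Compared with no gRNA, dual gRNA cells of batch 3 had a log2 ratio of the share of 0.42. By gene, 1 of 15 members tested was higher by 2-fold or more (mt-Rnr1, log2 ratio 1.09), where 60.8% of genes were higher, and 1 was lower (mt-Tp, -1.23), where 16.8% were. Here the members stayed below the median gene, which had a log2 ratio of 1.38.

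Batch 4 had the widest spread. The pooled share was 3.05% with control gRNA (15 cells, lowest 0.167%, median 2.89%, highest 5.28%), 5.43% with Sox9 gRNA (16 cells, lowest 0.712%, median 4.82%, highest 12.9%) and 7.73% with dual gRNA (13 cells, lowest 1.6%, median 5.87%, highest 23.3%), all at day 21. Of the Sox9 gRNA cells 8, and of the dual gRNA cells 7, were above the highest control gRNA cell. No cell of these 2 pools was below the lowest control gRNA cell. The log2 ratio to control gRNA was 0.83 for Sox9 gRNA and 1.34 for dual gRNA, and both use the same control cells. In control, Sox9 and dual gRNA cells, astrocyte markers summed to 14847, 13167 and 7969 nuclear CPM. Microglial markers summed to 9100, 4525 and 10750, and erythroid markers to 43.4, 10273 and 392. The 6 myelin genes summed to 2182, 186 and 859, with 6, 5 and 5 of them read. The part of these markers in the ratios was not tested.

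**Figure D3:**
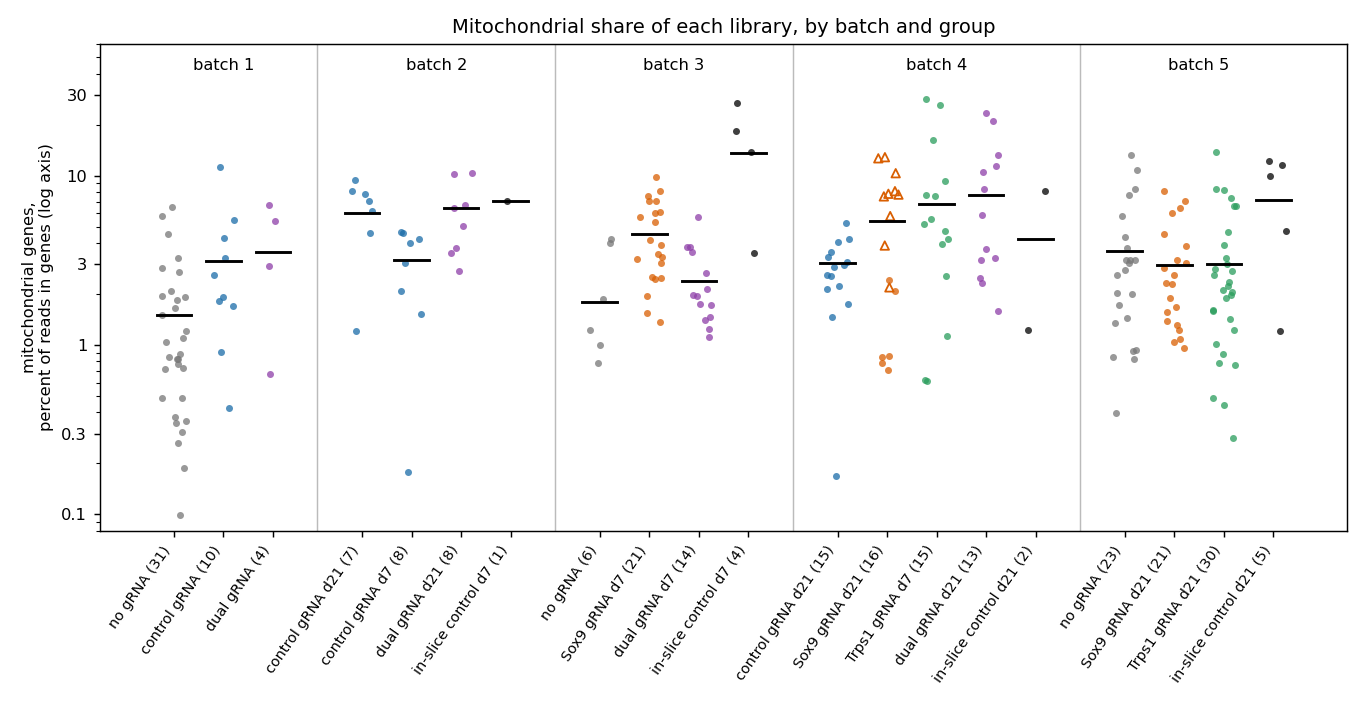
Mitochondrial genes as a percent of each library's reads in genes (log axis), 1 point per library, by batch and group, with the pooled share as a black line and the number of libraries in brackets. Open triangles are the Sox9 gRNA cells of title series 21S2 in batch 4, which lie between 2.2% and 12.9%, above 5 of the 6 filled points of series 21S.

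The 2 title series of Sox9 gRNA cells in batch 4 fell on opposite sides of the control. Series 21S had 1.31% (cells at 0.712%, 0.786%, 0.848%, 0.864%, 2.1% and 2.41%) and series 21S2 had 7.81% (10 cells, lowest 2.2%, median 7.78%, highest 12.9%). The log2 ratio to control gRNA was -1.22 with 21S alone and 1.35 with 21S2 alone. The median number of genes read was 2424 in 21S and 4787 in 21S2 cells, and erythroid markers summed to 67.6 and 16593 nuclear CPM. What the series stand for is not given in the labels, so series and gRNA effect cannot be told apart, and the part of the erythroid reads was not tested.

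By gene, only the rRNAs passed 2-fold between the pooled Sox9 and control gRNA cells of batch 4. Of the members, mt-Rnr1 (13732 against 5397 CPM, log2 ratio 1.35) and mt-Rnr2 (25968 against 11412 CPM, 1.19) were the 2 of 16 tested that were higher by 2-fold or more, where 23.2% of genes were, and none was lower, where 40.7% were. The pooled mRNAs outside the block ranged from -0.23 for mt-Nd1 to 0.52 for mt-Nd6, and with the 13 mRNA genes alone the log2 ratio of the share was 0.09. This value sums series that went opposite ways: mRNAs made up 0.259% of reads in genes in 21S, 2.138% in 21S2 and 1.36% with control gRNA, log2 ratios of -2.39 and 0.65. The rRNAs made up 1.05%, 5.66% and 1.68%, log2 ratios of -0.68 and 1.75. In both series the rRNA ratio was above the mRNA ratio, but rRNAs were above the control in 21S2 and below it in 21S. In dual gRNA cells the mRNAs were higher as well. All 9 genes outside the block were higher than in the control, from 0.74 for mt-Nd4 to 1.61 for mt-Rnr1, and 7 of 20 members tested were higher by 2-fold or more, against 19.5% of genes, and none was lower, against 36.9%. The median gene tested had a log2 ratio of -0.43.

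The direct comparison of Sox9 with dual gRNA cells gave a log2 ratio of -0.51 for the share. Of 20 members tested, 3 were lower in the Sox9 gRNA pool by 2-fold or more (mt-Nd1 at -1.32, mt-Tq at -1.57 and mt-Tp at -1.65), where 32.8% of genes were, and none was higher, where 31.5% were. With series 21S2 alone the ratio of the share was 0.01.

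Trps1 gRNA cells of day 7 in batch 4 had 6.83% (15 cells, lowest 0.616%, median 5.18%, highest 28.4%). They can be set only beside the control gRNA cells of day 21, with a log2 ratio of 1.16, so gRNA and day cannot be told apart. The cell with the most mitochondrial reads held 30.7% of the pool's, and without the top cell of each pool the ratio was 0.81. Of 23 members tested, 6 were higher by 2-fold or more, both rRNAs, mt-Nd6 and 3 tRNA genes (mt-Tf, mt-Tv and mt-Tq), against 28.7% of genes, and none was lower, against 35.0%. In the 1 cell of title series 7T2 (replicate 20), rRNA made up 99.8% of 38573 mitochondrial reads. That cell had only 5 mitochondrial genes with a read, and its astrocyte markers summed to 134 nuclear CPM.

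In batch 5 no log2 ratio of the share between astrocyte pools passed 0.27 in size. Microglial markers again differed between these pools, at 164 nuclear CPM without gRNA, 7916 with Sox9 gRNA and 6202 with Trps1 gRNA. It was 3.59% without gRNA (23 cells, lowest 0.397%, median 2.78%, highest 13.3%), 2.97% with Sox9 gRNA (21 cells, lowest 0.964%, median 2.31%, highest 8.13%) and 3.01% with Trps1 gRNA (30 cells, lowest 0.282%, median 2.186%, highest 13.9%). The log2 ratios to no gRNA were -0.27 and -0.25, and Sox9 against Trps1 gRNA gave -0.02. The ranges of all 3 pools overlapped. None of 24 members tested was past 2-fold with Sox9 gRNA, where 24.3% of genes were higher and 20.5% lower.

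Beneath the even share of batch 5, the make-up differed. In the Trps1 gRNA pool mt-Cytb was at 8197 CPM against 3862 without gRNA (log2 ratio 1.08) while mt-Rnr2 was at 7903 against 16900 (-1.10). With mt-Tq, these were the 3 of 24 members tested past 2-fold, 2 higher and 1 lower, against 30.3% of genes higher and 14.3% lower. As a part of mitochondrial reads, mt-Cytb was 27.2% in the Trps1 gRNA pool (median cell 27%), 15% in the Sox9 gRNA pool (median cell 14.5%) and 10.7% without gRNA (median cell 11.1%). The Trps1 gRNA title series differed among themselves in the part of rRNA, with 50.4% in 21T, 39.8% in 21T2 and 22.9% in 21T3, all below the 62.1% and 58.2% of the 2 series without gRNA. None of 23 members tested was past 2-fold between Sox9 and Trps1 gRNA cells, where 15.7% of genes were higher and 28.3% lower.

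**Figure D4:**
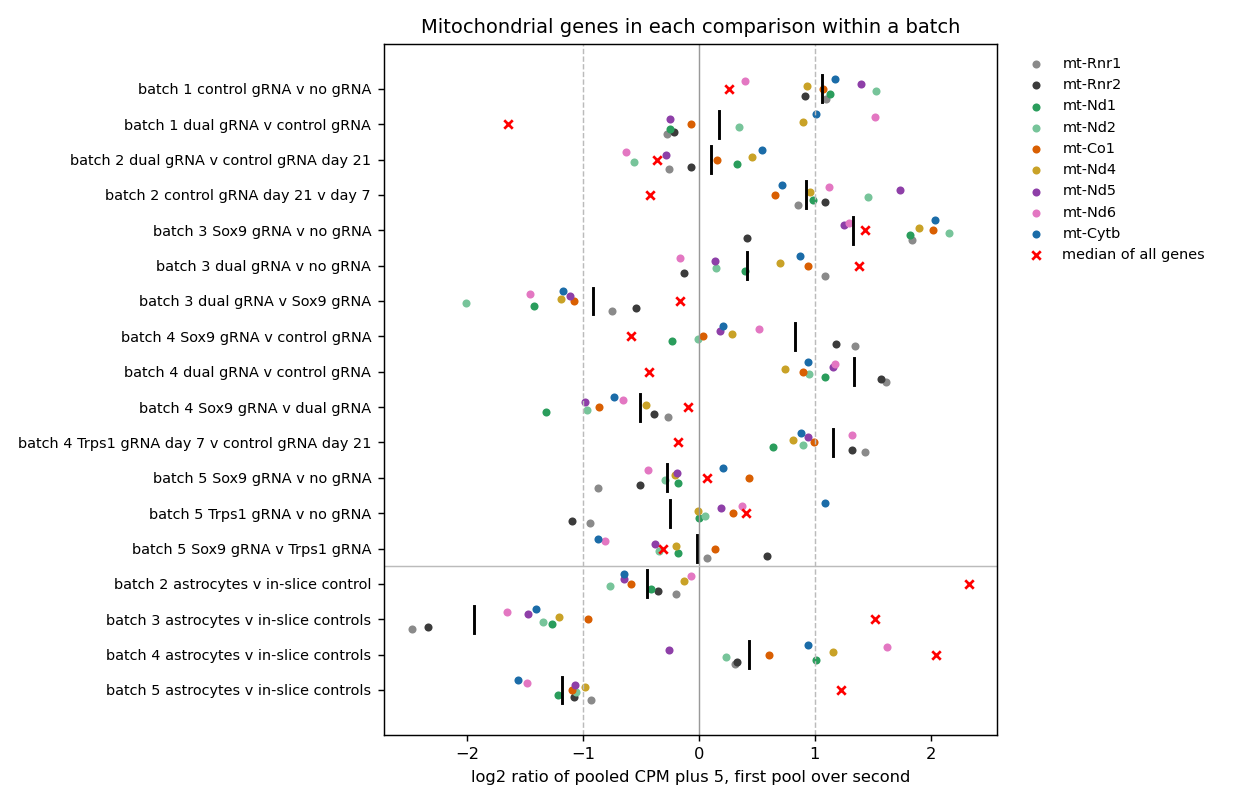
The log2 ratio of pooled CPM (5 added to each) of the 9 genes outside the block in each comparison within a batch, with the log2 ratio of the whole mitochondrial share as a black bar and the median of all genes tested as a red cross. Dashed lines mark 2-fold; in batch 4 the rRNA points of Sox9 against control gRNA lie right of the mRNA points, and in batch 5 mt-Cytb and mt-Rnr2 lie on opposite sides for Trps1 gRNA.

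Across all pools the make-up of the mitochondrial reads kept 5 genes on top. The rRNAs, mt-Cytb, mt-Co1 and mt-Nd1 were the leading 5 in astrocytes of each batch per kilobase. The part of the rRNAs ranged from 34.5% in the Trps1 gRNA pool of batch 5 to 73.2% in the Sox9 gRNA pool of batch 4. That of mt-Cytb ranged between 9.53% in the Sox9 gRNA pool of batch 4 and 32.7% in the dual gRNA pool of batch 1, that of mt-Co1 between 6.72% and 16.3%, and that of mt-Nd1 between 4.13% and 12.8%. Single cells varied more than pools: rRNA made up between 13.3% and 99.8% of the mitochondrial reads of a cell, with a median of 54.3%.

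In batch 4 the rRNA part was 55% with control gRNA (median cell 55.6%), 63.1% with Trps1 gRNA of day 7 (64.6%), 65.2% with dual gRNA (72.2%) and 73.2% with Sox9 gRNA (78.6%). Both Sox9 gRNA series shared the high part, with 80.1% in 21S and 72.5% in 21S2, although their mitochondrial shares were far apart. In batch 5 Sox9 gRNA cells had 48.8% against 60.4% without gRNA, and in batch 3 46.7% against 64.4%. The rRNA part of Sox9 gRNA cells was thus above the control gRNA pool in batch 4 and below the no gRNA pool in batches 3 and 5.

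**Figure D5:**
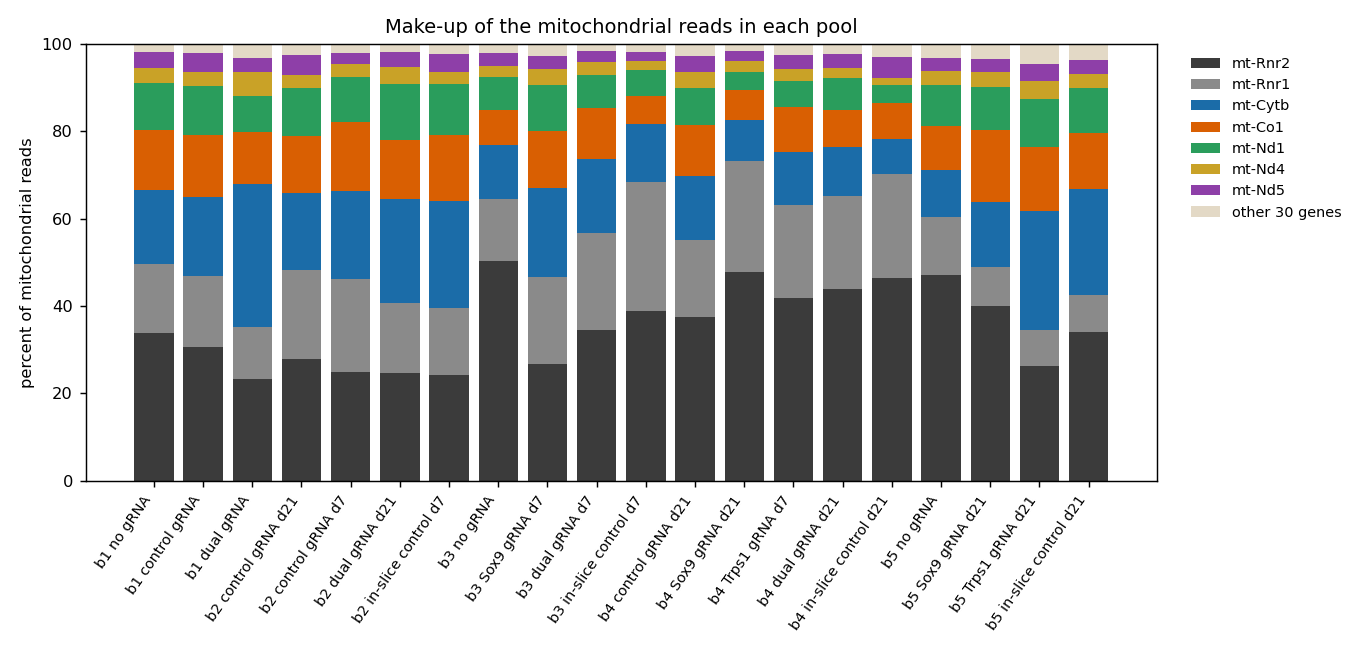
Make-up of the mitochondrial reads in the 20 pools, as percent of mitochondrial reads, with the 7 leading genes and the other 30 genes together; b1 to b5 are the batches, d7 and d21 the days. The 2 rRNA segments reach 73.2% in Sox9 gRNA cells of batch 4 and 34.5% in Trps1 gRNA cells of batch 5.

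Libraries labelled as holding no cell also contained mitochondrial reads, and in 3 of 4 batches at a higher pooled share than the astrocytes. In batch 3 the 4 in-slice controls had 13.8%, 27%, 3.51% and 18.3%, pooled 13.6% against 3.53% in astrocytes, a log2 ratio of astrocytes to controls of -1.94. In batch 5 the 5 controls had 11.5%, 10.001%, 12.2%, 4.73% and 1.21%, pooled 7.21% against 3.17% (-1.19). The single control of batch 2, of day 7, had 7.10% against 5.21% in astrocytes of both days (-0.45). Among those astrocytes the share was 3.17% at day 7, and 6.0% (control gRNA) and 6.43% (dual gRNA) at day 21. In batch 4 the 2 controls had 1.23% and 8.11%, pooled 4.25% against 5.74%, so the log2 ratio of 0.43 became 2.23 or -0.50 when either was left out. The controls of batch 4 were of day 21, and its astrocytes included the 15 Trps1 gRNA cells of day 7. The part of day in the ratios of batches 2 and 4 was not tested.

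By gene, in batches 2, 3 and 5 all 9 genes outside the block were lower in astrocytes than in the in-slice controls. The median gene tested was higher there. In batch 3, 16 of 25 members tested were lower by 2-fold or more in the astrocytes, against 12.1% of genes, and none was higher, against 65.3%. The median gene tested had a log2 ratio of 1.52 while mt-Rnr1 was at -2.48 and mt-Cytb at -1.41. In batch 5, 11 of 26 members tested were lower, against 14.4% of genes, with mt-Cytb at -1.57, none was higher, against 57.8%, and the median gene was at 1.23. In batch 2, 1 of 17 members tested was lower (mt-Co3, -1.07), near the 8.57% of genes, and none higher, against 87.0%. The median gene was at 2.33 in batch 2.

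The in-slice controls of batch 4 differed from those of the other batches. In batch 4, 8 of the 9 genes outside the block were higher in astrocytes, as was the median gene at 2.04. There 7 of 25 members tested were lower in astrocytes by 2-fold or more, all tRNA genes, against 7.87% of genes, and 4 were higher (mt-Nd1, mt-Co2, mt-Nd4 and mt-Nd6), against 84.7%. The in-slice controls of batches 2, 3, 4 and 5 had fewer genes read than the astrocytes, with medians of 2548, 3831, 2195 and 3801. Astrocytes of these batches had medians of 3914, 5069, 3775 and 4631.5. Summed astrocyte markers were also lower in the controls of each of these batches, as given above. Of the 10 astrocyte markers, 6, 9, 6 and 10 were read in the controls of batches 2, 3, 4 and 5. Aqp4 had no read in the controls of batches 2, 3 and 4. Neuronal markers reached 36022.5 nuclear CPM in 1 control of batch 5 (replicate 2), in which mt-Cytb made up 67.7% of mitochondrial reads. The astrocyte pools of batches 2 to 5 held 23, 41, 59 and 74 libraries, and the controls 1, 4, 2 and 5. A gene with no read in the few controls counts as higher in astrocytes once it passes the minimum and the fold. The part of these unequal numbers and of the lower number of genes read in these ratios was not tested.

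Nuclear genes of the respiratory chain were compared beside the members, as 98 genes whose symbols start with Nduf, Sdh, Uqcr, Cox or Atp5 stems. All gRNA comparisons whose share passed 2-fold are given, and some others. For control against no gRNA in batch 1, 37 of 88 were higher and 5 lower (37.2% and 30.1% of all genes). The median was 0.92 against 0.26. For Trps1 against control gRNA in batch 4, 11 of 91 were higher and 7 lower (28.7% and 35.0%). The median was 0.20 against -0.18. Between Sox9 and no gRNA in batch 3, 52 of 89 tested were higher by 2-fold or more and 4 lower, with a median log2 ratio of 1.49 against 1.43 for all genes, of which 63.5% were higher. In batch 4 the list had 12 higher and 21 lower of 90 tested for Sox9 against control gRNA, where 23.2% of all genes were higher and 40.7% lower, and the median was -0.33 against -0.59 for all genes. It had 9 higher and 8 lower of 92 for dual against control gRNA, where 19.5% of all genes were higher and 36.9% lower, with a median of -0.07 against -0.43. Between day 21 and day 7 of batch 2, 31 of 91 were higher and 9 lower (28.8% and 43.4% of all genes), with a median of 0.61 against -0.42 for all genes. In batch 5, 32 of 91 were lower and none higher in Sox9 than in Trps1 gRNA cells (28.3% and 15.7% of all genes), a median of -0.73 against -0.31 for all genes, with the mitochondrial share nearly equal.

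The leading 4 of the list were Atp5b and Atp5a1, which encode the beta and alpha subunits of the ATP synthase head, and Cox4i1 and Cox8a of complex IV. Over all astrocytes they stood at 923, 414, 655 and 474 CPM. In batch 4 their log2 ratios for dual against control gRNA were -1.21 for Atp5b, 0.26 for Atp5a1, 0.26 for Cox4i1 and -0.03 for Cox8a. Those for Sox9 against control gRNA were -0.50, 0.09, -0.75 and -0.69.

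Of 32 nuclear genes acting on mitochondrial DNA and RNA, such as the polymerase gene Polrmt and the packaging factor Tfam, most were read at a low level. The leading 4 were Fastk, whose protein family binds mitochondrial RNA (65.7 CPM), Hsd17b10, a subunit of the enzyme that trims the 5′ ends of mitochondrial tRNAs (64.4 CPM), Ppargc1a, a coactivator of mitochondrial biogenesis (63.8 CPM), and Rexo2, a nuclease of short RNAs (53.2 CPM). For dual against control gRNA in batch 4 their log2 ratios were -2.92, -2.06, -4.02 and 2.35, and the list had 4 higher and 11 lower of 23 tested, where 19.5% and 36.9% of all genes were. For Sox9 against no gRNA in batch 3, 17 of 25 were higher and 3 lower, near the 63.5% and 13% of all genes.

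Across cells within a batch, the mitochondrial share had little relation to depth. Spearman's rho with the reads in genes was -0.08, -0.11, -0.02, 0.01 and -0.13 in batches 1 to 5, over 45, 23, 41, 59 and 74 astrocytes that share a batch and differ in gRNA. With the number of nuclear genes read, rho was 0.13, -0.38, 0.27, 0.03 and -0.16, so it changed sign between batches. Summed astrocyte markers gave -0.02, 0.05, 0.18, -0.01 and -0.04, and the nuclear respiratory chain genes 0.18, 0.03, 0.19, 0.02 and 0.06. A cell with a high mitochondrial share did not, by these values, clearly tend to hold more reads of nuclear respiratory chain genes.

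Among marker sets, the 6 myelin genes had the highest rho with the share in a single batch, at 0.07, 0.45, 0.51, 0.20 and 0.72 in batches 1 to 5. Microglial markers gave 0.27, 0.27, 0.41, 0.02 and 0.29, and erythroid markers 0.25, 0.14, 0.07, 0.27 and 0.16. Neuronal markers gave -0.14, 0.05, 0.18, -0.06 and -0.05, and endothelial markers, at 32.4 nuclear CPM over all astrocytes, 0.10, 0.13, 0.06, 0.03 and -0.10. Among 802 nuclear genes read in at least 50% of the astrocytes of every batch, the 5 whose level followed the share most closely were Gm13340 (mean rho over 5 batches 0.82), Gm13341 (0.68), Mbp (0.36), Cox6a1 (0.29) and Gm15427 (0.27). The first 2 are the chromosome 2 copies of mt-Co1 and mt-Co2. Next came Mbp, the gene of myelin basic protein, with rho of 0.03, 0.50, 0.47, 0.14 and 0.67, and Cox6a1, which encodes a subunit of complex IV, with 0.38, 0.02, 0.47, 0.21 and 0.37. The median gene of the 802 had a mean rho of -0.01.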

How the data were processed

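Reads per gene and cell were deposited by the authors as raw counts, in 1 table per batch. The tools STAR 2.6.0a and RSEM 1.3.0 and the builds mm10 and GRCm38 are listed, without their roles, per the submitters' processing notes. How strand and multiply placed reads were treated is not given in the sources. Rows that name no gene were left out of totals. Gene IDs were matched to symbols with the supplied name table, and coordinates and sequences are from GENCODE M21 (GRCm38). Copies were found with blastn 2.17.0.

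With no animal named, each batch, gRNA and day was 1 pool and no test was run; in batch 1, day labels that differ from cell to cell were not used. Pooled counts were turned into CPM, and a log2 ratio compares CPM with 5 added. Genes were tested, in the sense of compared, at 5 CPM or more in the higher pool. The calculation of the pooled ratio was checked on simulated pools with large known changes. These had no variation between cells, so the check does not cover that spread. Python 3.11.15, pandas 2.3.3 and scipy 1.17.1 were used. All mRNA and rRNA members were named, the 3 tRNA genes with the highest CPM, the 4 highest genes of each nuclear list, and the 5 nuclear genes most like the share; other tRNA genes are named only where they passed 2-fold. Oligodendrocyte markers are given by 6 myelin genes, a set chosen after seeing the data, and 1 further gene is not reported here. The split of batch 4 series into mRNA and rRNA was also added after seeing the data. The members and lists were chosen with earlier results of these data known. Depth per astrocyte ran from 15959 to 4656612 reads in genes. Intervals are exact at 95% and cover counting error only, since amplified reads without molecular identifiers are not independent molecules. The alternatives were medians of cells, mRNAs only, leaving out the top cell or a library, title series alone, deeper cells, nuclear copies added, and other minimum and added CPM.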

Additional observations from a re-analysis of the deposited data

Results flagged for a closer look

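Control gRNA replicate 9 of batch 1 had a mitochondrial share of 11.3%, and the next highest of the 10 cells had 5.51%. The gap between them was 0.531 of the whole range of the pool, above Dixon's critical value for a group of this size. This was 1 of 8 pools of 4 to 10 libraries that were examined, and chance marks about 5% of groups of normally distributed values. The shares were examined as percentages and not on a log scale, and whether they are normally distributed was not tested. The cell held 1031842 reads in genes and 6513 genes with a read, and rRNA made up 38.3% of its mitochondrial reads.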

How the results depend on the processing

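The log2 ratio of the mitochondrial share between pools is given first as reported and then under each alternative that moved it beyond its counting interval, and the cause was not tested. Batch 1 control gRNA against no gRNA had 1.06, and 1.34 by cell medians, 0.82 without the top cells and 1.14 with 13 mRNAs. Batch 1 dual gRNA against control gRNA had 0.17, and 0.89 by cell medians, 0.064 without the top cells, 0.45 with 13 mRNAs and -0.39 to 0.58 without each replicate of the smaller group in turn. Batch 2 dual gRNA against control gRNA day 21 had 0.10, and -0.30 by cell medians, -0.050 without the top cells, 0.30 with 13 mRNAs and 0.15 per spike-in read. Batch 2 control gRNA day 21 against day 7 had 0.92, and 1.01 by cell medians, 0.88 without the top cells, 0.86 with 13 mRNAs and 0.18 per spike-in read. Batch 3 Sox9 gRNA against no gRNA had 1.33, and 1.32 by cell medians, 1.29 without the top cells, 1.32 with cells of 100000 reads or more, 1.92 with 13 mRNAs, 1.32 with 7S only and 1.36 with 7S2 only. Batch 3 dual gRNA against no gRNA had 0.42, and 0.35 by cell medians, 0.31 without the top cells, 0.40 with cells of 100000 reads or more, 0.70 with 13 mRNAs, 0.72 with 7ST only and 0.085 with 7ST2 only. Batch 3 dual gRNA against Sox9 gRNA had -0.92, and -0.97 by cell medians, -0.98 without the top cells, -1.22 with 13 mRNAs, -0.61 with 7ST only, -1.25 with 7ST2 only, -0.90 with 7S only and -0.94 with 7S2 only. Batch 4 Sox9 gRNA against control gRNA had 0.83, and 0.74 by cell medians, 0.78 without the top cells, 0.088 with 13 mRNAs, -1.22 with 21S only and 1.35 with 21S2 only. Batch 4 dual gRNA against control gRNA had 1.34, and 1.02 by cell medians, 1.09 without the top cells and 0.97 with 13 mRNAs. Batch 4 Sox9 gRNA against dual gRNA had -0.51, and -0.28 by cell medians, -0.32 without the top cells, -0.88 with 13 mRNAs, -2.56 with 21S only and 0.014 with 21S2 only. Batch 4 Trps1 gRNA day 7 against control gRNA day 21 had 1.16, and 0.84 by cell medians, 0.81 without the top cells, 0.87 with 13 mRNAs and 1.16 with 7T only. Batch 5 Sox9 gRNA against no gRNA had -0.27, and -0.27 by cell medians, -0.32 without the top cells, 0.10 with 13 mRNAs, -0.34 with 2AG only and -0.19 with AG only. Batch 5 Trps1 gRNA against no gRNA had -0.25, and -0.35 by cell medians, -0.25 without the top cells, 0.47 with 13 mRNAs, -0.27 with the 9 genes outside the block, -0.043 with 21T only, -0.41 with 21T2 only, -0.23 with 21T3 only, -0.32 with 2AG only and -0.18 with AG only. Batch 5 Sox9 gRNA against Trps1 gRNA had -0.02, and 0.082 by cell medians, -0.070 without the top cells, -0.37 with 13 mRNAs, -0.011 with the 9 genes outside the block, -0.23 with 21T only, 0.14 with 21T2 only and -0.044 with 21T3 only. Batch 2 astrocytes against in-slice control had -0.45, and -0.63 by cell medians, -0.56 with 13 mRNAs and -0.78 per spike-in read. Batch 3 astrocytes against in-slice controls had -1.94, and -2.39 by cell medians, -1.80 without the top cells, -1.27 with 13 mRNAs and -2.44 to -1.62 without each replicate of the smaller group in turn. Batch 4 astrocytes against in-slice controls had 0.43, and -0.27 by cell medians, 2.1 without the top cells, 0.70 with 13 mRNAs and -0.50 to 2.23 without each replicate of the smaller group in turn. Batch 5 astrocytes against in-slice controls had -1.19, and -2.10 by cell medians, -0.84 without the top cells, -1.30 with 13 mRNAs and -1.62 to -0.80 without each replicate of the smaller group in turn. Medians of cells kept the direction in 15 of 18 comparisons, the 13 mRNAs alone in 16 of 18, and leaving out the top cells in 16 of 17. The part of rRNA was 45.9%, 44.2%, 49.9%, 65.0% and 46.7% in batches 1 to 5 and 56.9%, 45.4%, 53.1%, 66.6% and 49.3% by medians of cells. Members past 2-fold, summed over comparisons, numbered 60 of 255 tested for gRNA and 39 of 93 tested for in-slice controls. Under the alternatives tried, the gRNA count ran from 48 (of 158 tested) to 80 (of 413 tested). The in-slice count ran from 27 (of 51 tested) to 52 (of 93 tested). These sums alone do not set the members apart from other genes. The share of all genes past 2-fold is given with each comparison in the Results. The ratios for the 9 genes outside the block and per spike-in read were chosen after seeing the data. No paired analysis was possible because the numbers in the titles only name cells and no test was run. Pools of 4 or fewer libraries and cells under 100000 reads limit the comparisons they enter, and no ratio has a replicate check.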
